A study of Mus musculus with 8 samples.

Results

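Gstp1, Gstp2 and Gstp3 encode the pi class glutathione transferases of the mouse. These 3 genes, of 49671 in the count table and 13117 with enough reads to test, were followed through 8 liver RNA-seq libraries. They were picked out by gene symbol but chosen by their measured CPM in these same 8 libraries, so their values are described here without a p-value. The study asked what mice lose without the N-terminal domains of the lamin B receptor, an inner nuclear membrane protein encoded by Lbr. It compared wild-type mice (WT) with mice homozygous for a CRISPR/Cas9 deletion, the N-terminal knockout (NT-KO). This deletion removes the first start codon of Lbr and the end of its intron 1 and leaves the sterol reductase part of the gene in place. It goes back to 1 founder male, mated to C57BL/6N females, and it is present in every cell from conception. All libraries are labelled as liver of post weaning C57BL/6 mice, and no treatment is given. Each of the 4 groups, WT males, NT-KO males, WT females and NT-KO females, had 2 libraries. The labels do not say whether the 2 libraries of a group came from separate animals, so the spread between them may be technical.

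The libraries held between 45020377 and 64396291 counts. Levels are given as CPM, the count scaled to a common library total after adjustment by the trimmed mean of M-values (TMM), and 1 count was worth 0.0147 to 0.0236 CPM. Alb, the serum albumin gene of hepatocytes, lay between 51858 and 83426 CPM in all libraries, and 0 of 8 hepatocyte markers were without a count in any of them. The Y-linked Ddx3y lay between 30.8 and 48.5 CPM in the 4 male libraries and at no more than 0.0459 CPM in the 4 female ones. Lbr itself was at 7.99 and 6.54 CPM in WT males and 12.8 and 13.6 CPM in NT-KO males, and at 7.43 and 6.96 CPM in WT females and 13.1 and 14.0 CPM in NT-KO females. Reads were counted over the whole gene, of which the deletion takes only a small part, so the Lbr level does not check the genotype labels.

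Glutathione transferases join the tripeptide glutathione to reactive, often fat-soluble compounds, which makes them easier to export from the cell. The pi class enzymes act as dimers in the cytosol, handle electrophiles such as aldehydes and epoxides, and Gstp1 also binds and holds back the stress kinase JNK. In mouse liver, Gstp1 is known as an abundant hepatocyte transcript with higher levels in males than in females. Pi class genes of rodents are known to carry AP-1 and antioxidant response elements near their start sites, which bind Fos and Jun proteins and NRF2.

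The 3 genes lie side by side on the minus strand of chromosome 19 in GRCm38, Gstp1 at chr19:4035407-4037985, Gstp2 at chr19:4040285-4046023 and Gstp3 at chr19:4057477-4059569. The gap between Gstp1 and Gstp2 is 2.30 kb and that between Gstp2 and Gstp3 is 11.5 kb. Each has 7 exons and 633 coding bases. A processed pseudogene, Gstp-ps, lies on another chromosome at chr1:192073820-192074450, 10.2 Mb from Lbr. The coding sequences of Gstp1 and Gstp2 are 98.1% identical, with 12 mismatches, while Gstp3 is 73.0% identical to Gstp1 and 73.1% to Gstp2. Coding exon 5 is given as an example of the difference between the close pair and the more distant gene. It is printed 5′ to 3′ on the minus strand as the annotated GRCm38 transcripts give it, with capitals where a base differs from Gstp1, at chr19:4036688-4036791 for Gstp1, chr19:4040982-4041085 for Gstp2 and chr19:4058086-4058189 for Gstp3.
Gstp1: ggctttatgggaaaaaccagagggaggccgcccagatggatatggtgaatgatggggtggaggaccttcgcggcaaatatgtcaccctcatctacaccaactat
Gstp2: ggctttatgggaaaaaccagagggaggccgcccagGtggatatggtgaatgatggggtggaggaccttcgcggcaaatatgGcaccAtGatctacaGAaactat
Gstp3: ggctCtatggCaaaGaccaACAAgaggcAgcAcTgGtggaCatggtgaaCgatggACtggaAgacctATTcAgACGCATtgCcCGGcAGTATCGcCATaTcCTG
Over these 104 bases Gstp2 differs from Gstp1 at 6 and Gstp3 at 44, and the longest run without a difference is 45 bases for Gstp2 and 8 for Gstp3. This exon differs more than the coding sequence as a whole. There Gstp2 has 12 mismatches to Gstp1 in 633 aligned columns and Gstp3 has 166 in 636.

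This likeness bears on what a read count of each gene means. Of all 50-base stretches of the Gstp1 transcript, 62.3% also occur in Gstp2 and 45.6% in Gstp-ps, and of those of Gstp2, 72.6% occur in at least 1 of the other genes. None of the 659 such stretches of Gstp3 occurs in another gene of the annotation. How reads that match several genes were counted is not given in the sources used here. The counts of Gstp1, Gstp2 and Gstp-ps are therefore uncertain at the level at which they could pass reads to each other, whereas those of Gstp3 do not meet this limit.

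In the promoters, too, Gstp1 and Gstp2 were the closest pair. RefSeq windows of GRCm38.p6, from 250 bases before to 50 after the start, were 76.6% identical between Gstp1 and Gstp2, 51.2% between Gstp1 and Gstp3 and 45.8% between Gstp2 and Gstp3. The RefSeq starts, at chr19 bases 4037912 for Gstp1, 4042221 for Gstp2 and 4059447 for Gstp3, lie inside the annotated genes given above. The whole Gstp2 window therefore lies within the annotated Gstp2 gene, while those of Gstp1 and Gstp3 cross the annotated 5′ ends. Both strands were searched for 5 motifs. TGAGTCA holds the letters of an AP-1 element. A longer form, TGAGTCAGC, contains it, so each match to the longer form is also a match to the shorter one. The core of an antioxidant response element was written as TGACNNNGC. TATAAG stands for a TATA box-like element, and the longer TATAAGGC contains it. The longer AP-1 form occurred once in Gstp1, from base -74, and once in Gstp2, from base -89, and it was not found in the window of Gstp3. Of 32851 promoter windows of this length, 0.414% hold it and 5.20% hold TGAGTCA. TGACNNNGC, held by 12.4% of the windows, was found in none of the 3 genes. The TGAGTCAGC of Gstp1 and Gstp2 matches it except for a G in place of its C. Forms of the antioxidant response element with that G were not searched for separately. The search therefore does not show that Gstp1 and Gstp2 lack such an element. TATAAG, held by 7.43%, was found in all 3 on the strand of the gene, from bases -40, -43 and -39, each time as part of TATAAGGC, which 0.475% of the windows hold. On the opposite strand TATAAG was also found in Gstp1, from base -42, and in Gstp2, from base -45, and not in Gstp3. Windows of 30 bases around these matches are printed 5′ to 3′ on the minus strand with the motif in capitals, because they show which letters the 3 genes share. The first 2 lie at chr19:4037967-4037996 and chr19:4042291-4042320, and the other 3 at chr19:4037935-4037964, chr19:4042247-4042276 and chr19:4059469-4059498.
Gstp1 AP-1 window: tccaacgtgtTGAGTCAGCatccggggcgg
Gstp2 AP-1 window: tccaacgtgtTGAGTCAGCatccggggcgg
Gstp1 TATA window: cgcgatgcccctTATAAGgctggcggcccg
Gstp2 TATA window: cgcaatgcccctTATAAGgctggctgtcct
Gstp3 TATA window: tcttcctgtcaaTATAAGgccccgatcact
A match of letters is a description and not a measured binding site.

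The 3 genes had 3 different patterns over the groups, and the one of Gstp3 set NT-KO males apart. Gstp3 stood at 16.7 and 10.9 CPM in WT males and at 659.7 and 411 CPM in NT-KO males. In females it stood at 26.3 and 27.0 CPM in WT and at 24.9 and 22.8 CPM in NT-KO. Both NT-KO male libraries were far above the other 6, and both NT-KO female libraries were just below both WT female libraries. The group means were 13.8 ± 4.13 in WT males, 535 ± 176 in NT-KO males, 26.7 ± 0.499 in WT females and 23.9 ± 1.49 CPM in NT-KO females (SD, n = 2 each). NT-KO males were 38.86-fold above WT males (log2 fold change 5.28, SE 0.326), the second highest log2 fold change of the 13117 tested genes. The log2 fold change among females was -0.16 (SE 0.273). In reads, Gstp3 rested on 946 and 460 counts in WT males against 32426 and 21560 in NT-KO males. The order of its levels from the lowest was WT males, NT-KO females, WT females and NT-KO males. The female groups did not overlap, with means of 26.7 and 23.9 CPM against SDs of 0.499 and 1.49 CPM.

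Gstp1 was the most abundant of the 3 genes and followed sex. It was at 1343 and 1457 CPM in WT males and at 1486 and 570.4 CPM in NT-KO males. In females it was at 78.1 and 79.0 CPM in WT and at 86.1 and 71.8 CPM in NT-KO. Every male library was above every female library, and within each sex the genotypes overlapped. The means were 1400.05 ± 80.7 in WT males, 1028 ± 648 in NT-KO males, 78.5 ± 0.631 in WT females and 79.0 ± 10.1 CPM in NT-KO females (SD, n = 2 each). Males were 17.8-fold above females in WT (log2 fold change 4.16, SE 0.433) and 13.0-fold in NT-KO (3.70, SE 0.424). The NT-KO value was 2.85 without NT-KO male replicate 1 and 4.23 without NT-KO male replicate 2. Between genotypes males gave a log2 fold change of -0.45 (SE 0.381), and females one of 0.0083 (SE 0.381). The male value rested on NT-KO replicate 2: it was 0.08 without that library and -1.29 without NT-KO replicate 1. Neither the 2 male groups nor the 2 female groups were separated beyond the spread within them.

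Gstp2, whose transcript shares most stretches with Gstp1, had both a sex and a male genotype difference. It was at 16.6 and 26.4 CPM in WT males and at 52.7 and 40.2 CPM in NT-KO males. In females it was at 2.38 and 0.793 CPM in WT and at 1.53 and 1.80 CPM in NT-KO, on 54 to 130 counts. The male libraries were all above the female ones, both NT-KO male libraries were above both WT male libraries, and the female genotypes overlapped. The means were 21.5 ± 6.92 in WT males, 46.4 ± 8.82 in NT-KO males, 1.59 ± 1.12 in WT females and 1.67 ± 0.196 CPM in NT-KO females (SD, n = 2 each). NT-KO males were 2.16-fold above WT males (log2 fold change 1.11, SE 0.416), and the female value was 0.092 (SE 0.463). The female value turned with the library left out, to -0.51 without WT female replicate 2 and to 1.07 without WT female replicate 1. Males were 13.6-fold above females in WT (log2 fold change 3.78, SE 0.475) and 27.9-fold in NT-KO (4.80, SE 0.491). The WT value rested in part on the lower WT female library: it was 4.76 without WT female replicate 1 and 3.17 without replicate 2.

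**Figure D1:**
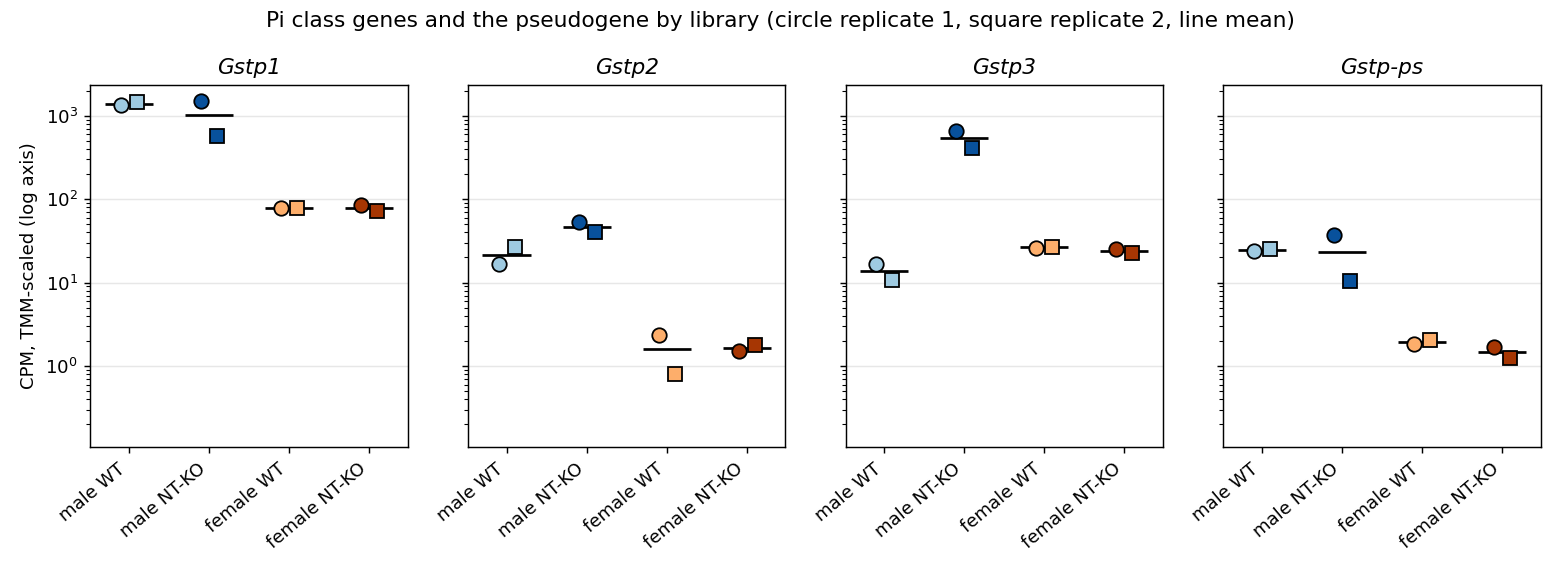
CPM of Gstp1, Gstp2, Gstp3 and the pseudogene Gstp-ps in each of the 8 libraries on a log axis, in 4 groups of 2 libraries (circle replicate 1, square replicate 2), with a line at each group mean. Gstp3 stands at 659.7 and 411 CPM in NT-KO males and at no more than 27.0 CPM elsewhere, while Gstp1, Gstp2 and Gstp-ps are higher in every male than in every female library.

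Between NT-KO males and WT males, groups that do not overlap were found for Gstp2 and Gstp3 in the higher direction, which 19.6% of all tested genes shared. In females NT-KO was below WT without overlap for Gstp3, as for 14.2% of all tested genes. These shares give the background for 2 against 2 libraries, for which the smallest 2-sided exact permutation p is 0.333, and nothing more is read from them here since the genes were chosen with these levels known. For the same reason the sex differences stand as values: in WT, 30.6% of tested genes were higher in both males than in both females and 31.4% lower, and in NT-KO 16.9% and 17.4%. A log2 fold change over 5 in NT-KO males was reached by 0.0152% of tested genes, Gstp3 among them. This cut was set with the Gstp3 value known, so the share only describes where that value lies.

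The pseudogene Gstp-ps, 97.6% identical to Gstp1 and 99.2% to Gstp2 over its length, was at 24.0 and 25.4 CPM in WT males, 36.7 and 10.4 in NT-KO males, 1.81 and 2.06 in WT females and 1.70 and 1.24 CPM in NT-KO females. Among the males it was lowest in the same library as Gstp1, NT-KO male replicate 2, and its counts were 1.73 to 2.605 for every 100 Gstp1 counts in the 8 libraries. Over the same libraries Gstp2 had 1.00 to 7.05 counts for every 100 of Gstp1. It held 1.24 and 1.81 in WT males and 3.54 and 7.05 in NT-KO males, so the Gstp2 count was not in 1 proportion to that of Gstp1. Whether reads passed between these genes was not tested.

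Levels per kilobase of the longest coding transcript (821 bases for Gstp1, 797 for Gstp2 and 708 for Gstp3) allow for transcript length only. If reads matching several genes were dropped, Gstp1 and Gstp2 would be counted too low beside Gstp3. How such reads were treated is not given, so the shares between the genes carry this limit. In WT males, Gstp1 made up 97.4% and 97.3% of the summed pi class level per kilobase, Gstp2 1.24% and 1.82%, and Gstp3 1.40% and 0.841%. In NT-KO males, Gstp3 took 33.2% and 43.8% and Gstp1 64.5% and 52.4%. In the 4 female libraries Gstp3 held between 24.8% and 28.2% and Gstp1 between 70.3% and 73.9%. The share of Gstp3 in NT-KO males was thus above that in the females, at a much higher sum. The summed level of the 3 genes was 1680.2 and 1823 CPM per kilobase in WT males, 2808 and 1326 in NT-KO males, and 122 to 142 in the 4 female libraries. The sum in the 2 male genotypes overlapped.

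**Figure D2:**
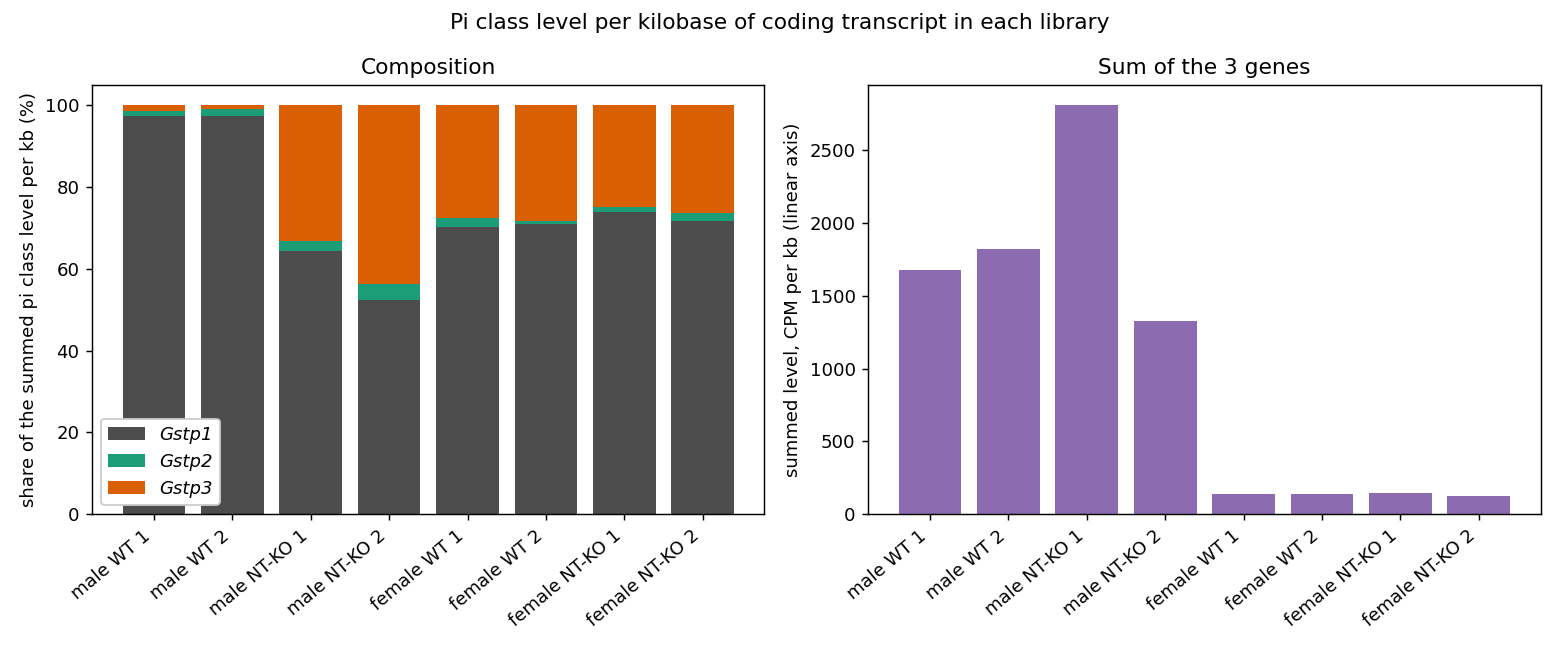
Left, share of Gstp1, Gstp2 and Gstp3 in the summed pi class level per kilobase (%) in each of the 8 libraries. Right, that sum in CPM per kilobase on a linear axis. The shares depend on how reads matching several genes were counted, which is not given. Gstp3 holds at most 1.40% in WT males, 33.2% and 43.8% in NT-KO males and between 24.8% and 28.2% in the female libraries, and the sum is 1326 to 2808 in the 4 males against at most 142 in the 4 females.

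Set among the other glutathione transferases per kilobase, Gstp1 had a mean of 1705 CPM per kilobase in WT males, below the microsomal Mgst1 (3556) and above the alpha class Gsta3 (1039) and the mu class Gstm1 (718). In WT females it had 95.6, against 1061 for Gsta3 and 917 for Gstm1. Gstp3 had 19.5 CPM per kilobase in WT males, close to the mu class Gstm7 (20.2), and 756 in NT-KO males, between Gstz1 (446) and Gstm1 (869.6). Gstp2 lay at 27.0 in WT males and 58.3 in NT-KO males. The places of Gstp1 and Gstp2 in this order carry the same limit of shared reads.

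**Figure D3:**
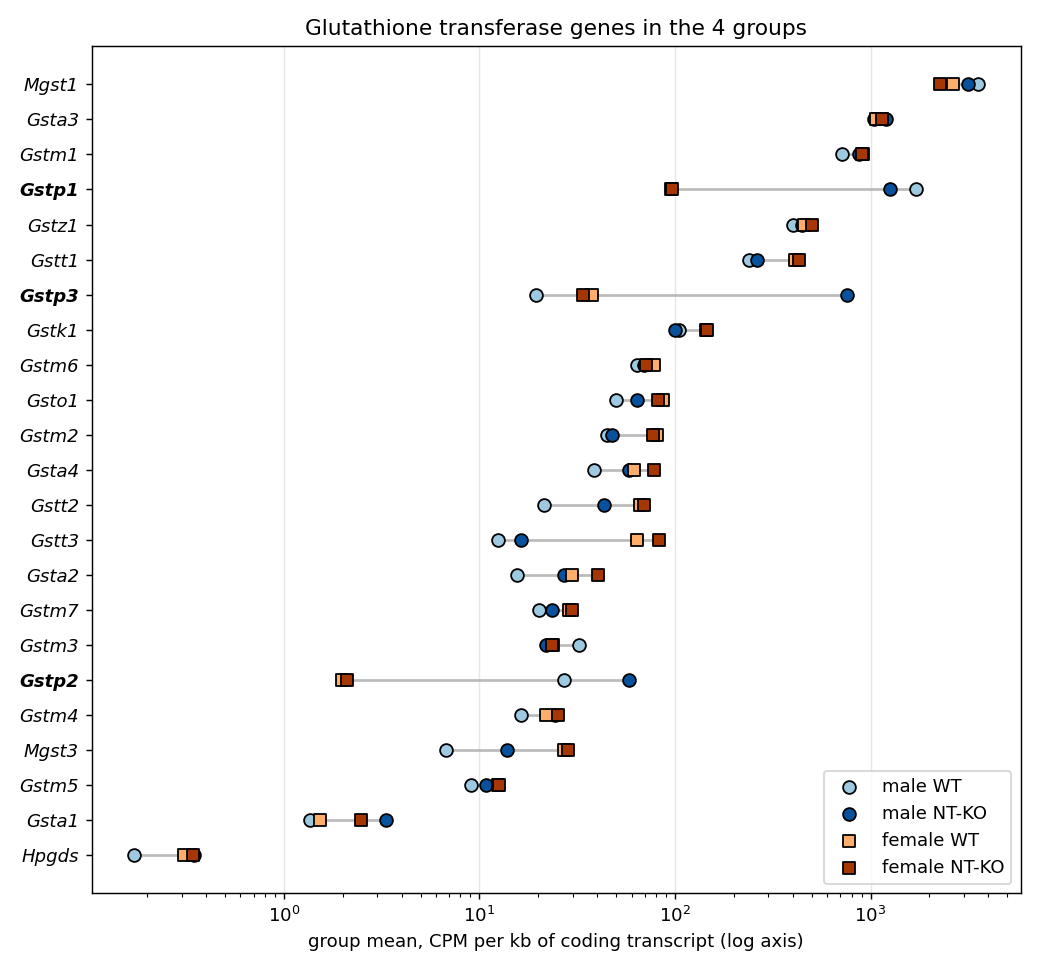
Group means in CPM per kilobase of coding transcript (log axis) of the 23 tested protein coding glutathione transferase genes, ordered by their mean over the 8 libraries (circles male, squares female). In Gstp3 the NT-KO males stand at 756 and the other 3 groups between 19.5 and 37.7, and Gstp1 and Gstp2 stand higher in both male groups than in both female ones.

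The other genes of glutathione conjugation were compared between the genotypes with edgeR's quasi-likelihood test. A gene was called where its Benjamini-Hochberg adjusted p (FDR) did not exceed 0.05 and its log2 fold change went past 1 in size. By this rule 0.0152% of tested genes were called between NT-KO and WT males, namely Gstp3 and the chemokine receptor gene Ccr3 (log2 fold change -5.84, FDR 0.00539). In females 0.00762% were called, namely Ccr3 (3.86, FDR 0.0491). This female call was lost, leaving 0 genes called, on leaving out any 1 of the 8 libraries, with the replicate number as a block and with the female libraries alone. With the male libraries alone 0 genes were called in males. Both genes are named because they make up the whole count, and the call of Gstp3 is no result here since its levels chose it. At an unadjusted p under 0.05 the shares were 11.5% and 1.55%. With edgeR's likelihood ratio test 1.56% of genes were called in males (0.823% higher, 0.739% lower in NT-KO) and 0.0839% in females (0.0381% higher, 0.0457% lower). DESeq2 called 1.66% in males (0.854% higher, 0.808% lower) and 0.0381% in females (0.00762% higher, 0.0305% lower).

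Of the other soluble glutathione transferases, 0 of 19 tested were called between genotypes in either sex by the quasi-likelihood or the likelihood ratio test. At an unadjusted p under 0.05, 1 was higher and 1 lower in males and 0 in females, and DESeq2 called Gstt2 in males. Their median log2 fold change was 0.26 in males, where 16 of 19 were above 0, and 0.07 in females, against 0.01 and 0.0012 over all tested genes. The mean log2 CPM of the list, centred per gene, was -0.17 and -0.65 in WT males and -0.14 and -0.04 in NT-KO males, so that WT male replicate 1 lay close to the NT-KO libraries and WT male replicate 2 stood apart. Gstt2, a theta class enzyme, was at 51.7 and 44.8 CPM in WT males and 125 and 69.8 CPM in NT-KO males (log2 fold change 1.02, SE 0.292, FDR 0.274 by edgeR's quasi-likelihood test). Both NT-KO values were above both WT values and below the 131 to 179 CPM of the 4 female libraries. The Gstt2 log2 fold change was 0.53 without NT-KO male replicate 1 and 1.37 without NT-KO male replicate 2.

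Among the microsomal enzymes and their relatives 0 of 4 tested were called between genotypes in either sex, and at an unadjusted p under 0.05 1 was higher in males and 0 in females. That gene was Mgst3, which makes leukotriene C4 and reduces lipid peroxides. It was at 8.38 and 6.44 CPM in WT males, 14.1 and 16.3 in NT-KO males and 28.1 to 31.3 CPM in the females (NT-KO against WT males log2 fold change 1.03, SE 0.178, FDR 0.160 by edgeR's quasi-likelihood test). Mgst3 was called by the likelihood ratio test (FDR 0.00149) and by DESeq2 (FDR 0.00073), and its male groups did not overlap.

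For glutathione synthesis, recycling and export, 0 of 30 tested genes were called between genotypes in either sex by edgeR's quasi-likelihood test, its likelihood ratio test or DESeq2, and 3 were higher in males and 0 in females at an unadjusted p under 0.05. The export pump gene Abcc3 had the smallest p in males, at 98.9 and 38.0 CPM in WT and 149 and 134 CPM in NT-KO (log2 fold change 1.04, SE 0.381, FDR 0.364). The Abcc3 value rested on the WT libraries: it was 0.51 without WT male replicate 2 and 1.89 without WT male replicate 1. Chac2, which encodes an enzyme that degrades glutathione, came next, at 24.4 and 20.4 CPM in WT males and 26.0 and 38.8 CPM in NT-KO males (FDR 0.401). In both genes both NT-KO libraries were above both WT libraries.

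A list of 38 targets of NRF2, the factor that binds antioxidant response elements, gave 0 calls between genotypes among 35 tested by the same 3 tests in either sex. In males 9 were higher and 0 lower at an unadjusted p under 0.05, and in females 0 in either direction. In males 30 of 35 had a log2 fold change above 0, with a median of 0.34 against 0.01 over all tested genes, and in females 25 of 35 with a median of 0.11. The centred mean of this list was -0.15 and -0.42 in WT males and 0.07 and 0.15 in NT-KO males. Those with the smallest p in males were Htatip2 (17.7 and 18.4 CPM in WT, 27.9 and 28.3 in NT-KO, FDR 0.206 by edgeR's quasi-likelihood test) and the aldehyde oxidase gene Aox1 (86.9 and 61.3 CPM in WT, 123 and 132 in NT-KO, FDR 0.246). In both genes the male groups did not overlap. The quinone reductase gene Nqo1 was at 2.95 and 1.75 CPM in WT males and 3.95 and 6.21 CPM in NT-KO males.

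The genes of the factors that bind these elements were also counted. Of 18 tested AP-1, NRF2 and partner genes 0 were called between genotypes by the 3 tests, and 2 were higher at an unadjusted p under 0.05 in each sex, Nfe2l2 and Maff in males and Atf3 and Jun in females. Nfe2l2, which encodes NRF2, was at 44.6 and 57.7 CPM in WT males and 67.8 and 81.6 in NT-KO males (log2 fold change 0.55, SE 0.192, FDR 0.347 by edgeR's quasi-likelihood test). Its partner gene Maff was at 3.72 and 2.19 CPM in WT males and 11.1 and 4.59 in NT-KO males (FDR 0.364). In females Atf3, a stress-induced factor, was at 1.39 and 1.26 CPM in WT and 3.09 and 1.97 CPM in NT-KO, and Jun at 7.90 and 4.39 CPM in WT and 13.5 and 8.66 CPM in NT-KO. For the xenobiotic receptors and their targets, 0 of 21 were called by the 3 tests in either sex, and at an unadjusted p under 0.05 there were 2 higher in males and 0 in females. The receptor gene Nr1i3, which encodes CAR, was at 49.4 and 57.2 CPM in WT males and 144 and 58.2 in NT-KO males, so that 1 of the NT-KO libraries was close to both WT libraries. The median log2 fold change of these 21 genes was 0.30 in males and 0.07 in females. Their centred mean was -0.06 and -0.74 in WT males and -0.13 and 0.06 in NT-KO males, so that WT male replicate 1 lay between the NT-KO libraries and only WT male replicate 2 was lower.

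Between the sexes in WT, the genes that edgeR's quasi-likelihood test called in these lists were lower in males. These calls were few and are given beside the shares over all tested genes, so nothing about the lists is read from them. Of all tested genes 4.68% were called, 2.13% higher and 2.55% lower in males. An unadjusted p under 0.05 was reached by 27% of them. Of the other soluble transferases 0 of 19 were called higher in males and 2 lower, also by the likelihood ratio test and DESeq2. The 2 were Gstt3 (30.5 and 16.2 CPM in WT males, 84.0 and 156 in WT females, log2 fold change -2.36, FDR 0.0138) and Gstt2 (-1.62, FDR 0.0233). At an unadjusted p under 0.05, 0 were higher and 5 lower. A log2 fold change below 0 was found for 17 of the 19 (median -0.46). Mgst3 was lower in males, with a log2 fold change of -2.00 (FDR 0.000985). Of the NRF2 targets 0 were called higher and 2 lower in males, Nqo1 (-2.29, FDR 0.0108) and Cd36 (-2.16, FDR 0.0298). The likelihood ratio test called 1 higher and 4 lower, and DESeq2 called 1 higher and 5 lower. At an unadjusted p under 0.05, 3 of the 35 tested were higher and 8 lower. Of the xenobiotic targets the drug pump gene Abcb1a (-2.71, FDR 0.00608) and Cyp2b10 (-3.17, FDR 0.0421) were lower in males. The likelihood ratio test and DESeq2 each called 0 higher and 5 lower. At an unadjusted p under 0.05, 2 of the 21 tested were higher and 7 lower. The FDR values and the unadjusted p-values here are from edgeR's quasi-likelihood test. In NT-KO, where 1.78% of tested genes were called, 0.945% higher and 0.839% lower in males, Gstt3 (-2.35, FDR 0.0191), Mgst3 (-1.03, FDR 0.0248), Abcb1a (-2.40, FDR 0.0114) and the carbonyl reductase gene Cbr1 (-1.05, FDR 0.0241) were lower in males, and Aox1 (1.29, FDR 0.0197) was higher.

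Most of these sex calls were lost under some alternative. In WT, Mgst3 and Abcb1a kept the call in all 15 alternatives run. Gstt3 and Nqo1 lost it in 2 of 15, both on leaving out 1 library, and Gstt2 in 4 of 15, on leaving out any 1 WT library. Gstt3 was -1.85 without WT female replicate 2 (FDR 0.0598). Cd36 lost the call in 5 of 15, each a left-out library, and ran from -2.70 without WT female replicate 1 to -1.29 without WT female replicate 2. Cyp2b10, at 2.68 and 0.330 CPM in WT males, lost it in 5 of 15, among them the replicate block, and ran from -5.38 without WT male replicate 1 to -2.38 without WT male replicate 2. In NT-KO, Gstt3, Mgst3, Cbr1 and Aox1 lost the call on leaving out any 1 NT-KO library, and Abcb1a without NT-KO male replicate 1 or NT-KO female replicate 2.

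Genes known for sex-biased levels in mouse liver give the setting of the sex difference in Gstp1 and Gstp2. These lists were written with earlier results of these data known, so their directions between the sexes are a description and no test. In both genotypes all 24 male-biased genes had a log2 fold change above 0 in males against females and all 28 female-biased genes one below 0. By edgeR's quasi-likelihood test 21 of the male-biased genes were called higher and 25 of the female-biased genes lower in WT, and 19 and 24 in NT-KO. Of all tested genes 2.13% were called higher and 2.55% lower in males in WT, and 0.945% and 0.839% in NT-KO. For WT the likelihood ratio test called 24 and 27 of them and DESeq2 24 and 26. For NT-KO both tools called 20 and 26. In NT-KO against WT males 0 of either list were called by edgeR's quasi-likelihood test, and at an unadjusted p under 0.05 1 male-biased gene was higher and 6 were lower. The likelihood ratio test called 2 male-biased genes lower and DESeq2 3. For the female-biased genes the quasi-likelihood test gave 5 higher and 3 lower at an unadjusted p under 0.05, the likelihood ratio test called 5 higher and 2 lower, and DESeq2 5 and 1. The esterase gene Ces2b stood at 22.4 and 11.5 CPM in WT males and 0.936 and 0.324 in NT-KO males (log2 fold change -4.76, FDR 0.0615), and the peroxisomal transporter gene Abcd2 at 1.18 and 1.25 CPM in WT males and 6.63 and 6.63 in NT-KO males (2.45, FDR 0.0598). Both were called by the likelihood ratio test and DESeq2. The Ces2b value was -5.70 without NT-KO male replicate 1 and -4.18 without NT-KO male replicate 2.

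The library in which Gstp1 was low, NT-KO male replicate 2, was also low for male-biased genes. Their summed level was 50529 and 39817 CPM in WT males, 40714 and 24635 CPM in NT-KO males and between 1224 and 1896 CPM in the female libraries. Their median log2 fold change in NT-KO against WT males was -0.39, with 17 of 24 below 0. Gstp3 was high in both NT-KO male libraries, with 659.7 CPM in the one with 40714 and 411 CPM in the one with 24635 CPM of male-biased genes. Whether this library difference has a part in the Gstp1 values was not tested.

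Genes with patterns most like those of the 3 members were taken by Pearson's r of log2 CPM over the 8 libraries, as a description over libraries that share the same groups. For Gstp1 they were Cadm4 (r = 0.997), Gstp-ps (0.994), Mup20 (0.991), the gene model Gm13773 (0.991) and Mup15 (0.990). Mup20 and Mup15 encode major urinary proteins, and Mup20 ran at 8237 and 5830 CPM in WT males, 6231 and 2488 in NT-KO males and 27.0 to 50.9 CPM in the females. Like Gstp1 it was lowest among the males in NT-KO male replicate 2. For Gstp2 they were Rab34 (0.994), Unc13b (0.982), Cyp4a12a (0.979), Susd4 (0.979) and the pseudogene Gtpbp4-ps1 (0.979). Of these, Susd4 was at 32.9 and 29.3 CPM in WT males and at 58.3 and 43.0 in NT-KO males, against 1.98 to 4.12 in the females.

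For Gstp3 the 5 genes were Gm12247 (0.979), Gm18860 (0.963), Havcr1 (0.955), Gm12248 (0.946) and Lrig3 (0.931). Havcr1, which encodes the kidney injury molecule KIM-1, was at 1.53 and 1.30 CPM in NT-KO males and at no more than 0.0529 CPM in the other 6 libraries. Gm12247 was at 7.79 and 5.13 CPM in NT-KO males and 1.04 to 1.65 CPM elsewhere. Gm12248 was at 1.91 and 1.11 CPM in NT-KO males and at no more than 0.0882 CPM elsewhere. Mup20, Cyp4a12a and Susd4 are also on the male-biased list. In Havcr1, Gm12247 and Gm12248 both NT-KO male libraries were above the other 6, as in Gstp3, at levels far below it. The genes were picked for this likeness, so the shared pattern is no further result. Havcr1 and Gm12248 reached 1 CPM only in the NT-KO male libraries and passed the filter through them alone. For Gm18860 and Lrig3 the log2 fold changes in NT-KO against WT males were 1.63 and 0.54. Among the members themselves r was 0.931 for Gstp1 with Gstp2, 0.325 for Gstp1 with Gstp3 and 0.560 for Gstp2 with Gstp3 (n = 8).

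The genes around the cluster were counted next. Of 49 genes within 500 kb on either side, 35 were tested and 0 were called between genotypes in either sex by edgeR's quasi-likelihood test, its likelihood ratio test or DESeq2. At an unadjusted p under 0.05, 2 were higher and 1 lower in males and 0 were higher and 2 lower in females. Their male log2 fold changes ran from -0.78 for Cdk2ap2 to 1.57 for Aldh3b3, with a median of -0.02, and the female ones from -0.93 for Ptprcap to 0.26 for Rhod. The upper male value rests on few reads, since Aldh3b3 had 1 and 4 counts in WT males and 6 and 10 in NT-KO males (SE 0.681). The nearest tested gene on one side, Ndufv1, a subunit of respiratory complex I 22.6 kb away, was at 188 and 157 CPM in WT males and 154 and 141 CPM in NT-KO males. On the other side, 37.6 kb away, Cdk2ap2 was at 54.9 and 80.8 CPM in WT males and 44.2 and 34.5 CPM in NT-KO males (FDR 0.274). Between the sexes in WT, 0 of the 35 neighbours were called higher and 2 lower in males, against 4.68% of all tested genes. These were Aldh3b3 (log2 fold change -7.03, FDR 0.000498 by edgeR's quasi-likelihood test) and Tbc1d10c (-2.01, FDR 0.0244). The likelihood ratio test called 0 higher and 4 lower, and DESeq2 called 1 higher, Chka, and 3 lower. At an unadjusted p under 0.05, 4 were higher and 9 lower, where 27% of all tested genes passed. Aldh3b3 kept the call in all 15 alternatives run and ran from -8.46 without WT male replicate 2 to -6.17 without WT male replicate 1, and Tbc1d10c lost it on leaving out any 1 WT library.

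**Figure D4:**
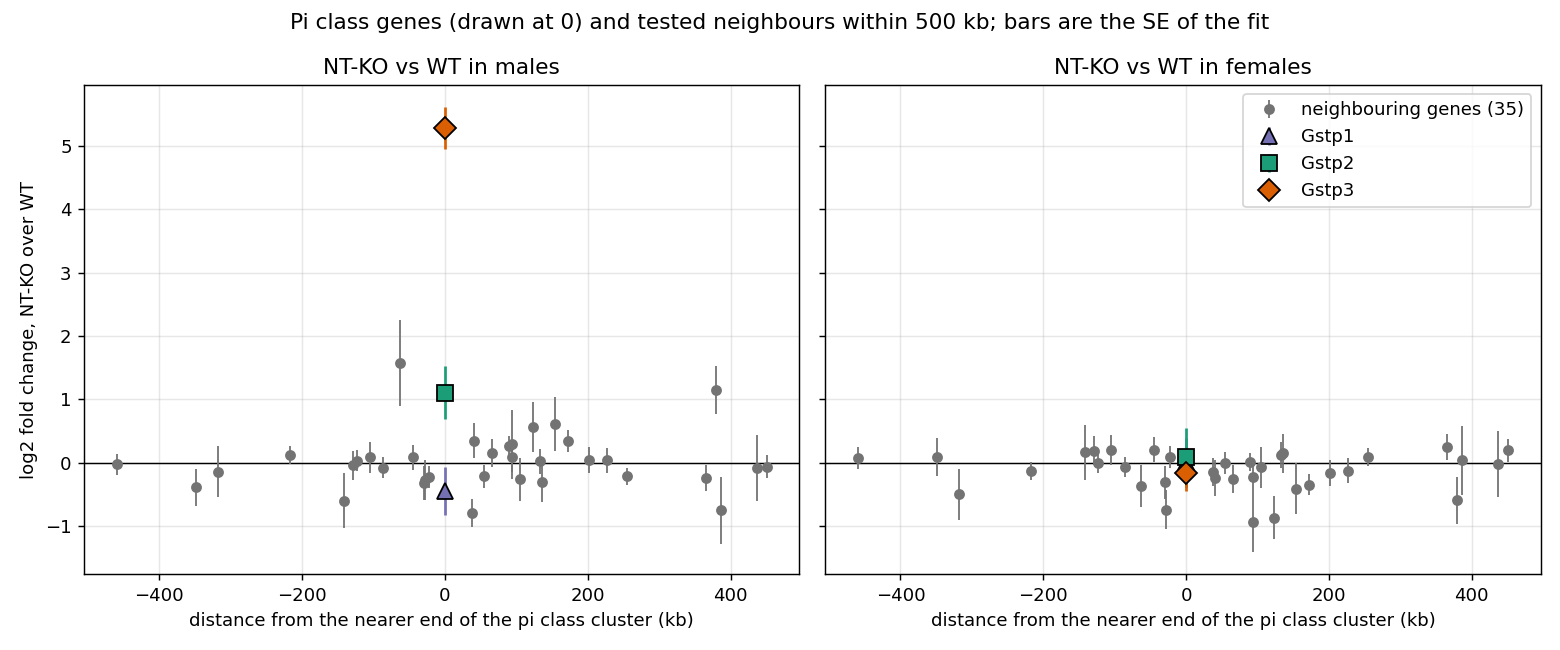
Log2 fold change of NT-KO over WT in males (left) and females (right) against the distance in kb from the nearer end of the gene cluster, for the 35 tested neighbours within 500 kb, with Gstp1, Gstp2 and Gstp3 drawn at 0 and bars for the SE of the fit. Gstp3 stands at 5.28 in males, above the neighbours, which lie between -0.78 and 1.57 (Aldh3b3, on 1 to 10 counts a library), and at -0.16 in females.

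Bulk liver RNA mixes cell types, and fewer cells of a type and less RNA per cell cannot be told apart in it. Of the cells that could carry pi class RNA besides hepatocytes, the bile duct cells were followed by 10 markers, 7 of them tested. Their summed level, led by Spp1, was 52.5 and 58.9 CPM in WT males, 40.3 and 42.4 in NT-KO males, and 43.1 to 69.6 in the female libraries, with Cftr at 0 in WT male replicate 2 and NT-KO male replicate 1. The sum followed Spp1, at 36.9 and 43.3 CPM in WT males and 22.3 and 25.8 CPM in NT-KO males, while the other 6 of the 7 tested markers had a log2 fold change above 0 in males. The median over the 7 was 0.19, against 0.01 over all tested genes. The 8 Kupffer cell and macrophage markers, led by Clec4f, summed to 153 and 239 CPM in WT males, 268 and 204 in NT-KO males and 283 to 335 in females. The 7 stellate cell markers, led by Dcn, summed to 222 to 302 CPM over the 8 libraries. The 6 sinusoidal endothelial markers, led by Clec4g, summed to 180.9 and 125 CPM in WT males, 209 and 181.3 in NT-KO males and 199 to 230.4 in females. In males 7 of 8 Kupffer markers (median 0.27), 4 of 7 stellate (0.03) and 5 of 6 endothelial ones (0.29) had a log2 fold change above 0. In females these were 3 (-0.02), 4 (0.06) and 1 (-0.08). The centred mean of the endothelial list was -0.05 and -0.53 in WT males and -0.02 and -0.14 in NT-KO males. No gene of these 4 lists was called between genotypes by edgeR's quasi-likelihood test, its likelihood ratio test or DESeq2. At an unadjusted p under 0.05 there were 1 higher and 2 lower in males and 0 higher and 1 lower in females. Of the 8 hepatocyte markers 0 were called between genotypes by the 3 tests in either sex. In males 2 had a log2 fold change above 0 and 6 below, with a median of -0.04. Only Fga was lower at an unadjusted p under 0.05 (log2 fold change -0.98). It was at 3471 and 3690 CPM in WT males and 1753 and 1890 CPM in NT-KO males. In females 5 were above 0 and 3 below (median 0.15), with 0 at an unadjusted p under 0.05.

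Blood cell markers differed between libraries as well. The 6 B cell markers, led by Ighm, summed to 7.13 and 5.59 CPM in WT males, 14.8 and 57.3 in NT-KO males and 8.83 to 22.9 in females. All 6 had a log2 fold change above 0 in males and all 6 below 0 in females, with 0 called in either sex by edgeR's quasi-likelihood test, 2 in males by the likelihood ratio test and 1, Jchain, by DESeq2. At an unadjusted p under 0.05 there were 2 higher in males and 2 lower in females. They were highest in NT-KO male replicate 2, where Gstp3 was lower than in replicate 1. The 6 T cell markers, led by Trbc2, summed to no more than 6.40 CPM in any library, and the 5 neutrophil markers, led by S100a9, to no more than 9.23 CPM, with Ly6g or Retnlg at 0 in 5 libraries. The 5 erythroid markers, led by Hbb-bs, summed to 882 and 417 CPM in WT males, 349 and 368 in NT-KO males and 153 to 294 in females, and 1 of them, Alas2, is also on the male-biased list. Of the T cell, neutrophil and erythroid markers 0 were called between genotypes by the 3 tests, and at an unadjusted p under 0.05 there were 2 erythroid genes lower in males and 1 T cell gene lower in females. Of the 5 pancreatic acinar markers, led by Cela2a, at least 3 were at 0 in every library and the sum was at most 0.712 CPM. The part of these cells in the pi class values was not tested.

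Of the reference genes, Gapdh lay between 489 and 781 CPM, Actb between 243 and 366 and Tbp between 12.6 and 16.1 CPM over the 8 libraries, with log2 fold changes in NT-KO against WT males of -0.42, -0.23 and 0.03 (edgeR's quasi-likelihood test, FDR 0.502, 0.766 and 0.962). The ranges of Actb and Tbp in the male groups overlapped, while both NT-KO values of Gapdh were below both WT values.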

How the data were processed

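RNA from mouse liver was sequenced in 8 libraries (WT and NT-KO, males and females, 2 each). The authors deposited raw read counts per Ensembl gene, made per the labels with cutadapt, STAR 2.6.1a on GRCm38 and featureCounts. The strand setting and the treatment of reads matching several genes are not given in the sources used here. Gene IDs were matched to GENCODE M21 (49412 of 49671). Genes reaching 1 CPM in 2 or more libraries (13117, without rRNA, miRNA and mitochondrial genes) were fitted with edgeR 4.0.16 in R 4.3.3 (TMM, glmQLFit and glmQLFTest, all 8 libraries in 4 groups). The study's methods name edgeR with TMM and glmFit, and the likelihood ratio test that goes with glmFit was tried as an alternative. Each SE was taken as the absolute log2 fold change over the root of the F statistic. DESeq2 1.42.0, other scalings, other filters and the removal of each library were tried as alternatives, and the code was tested on simulated data. Libraries held 45020377 to 64396291 counts, so that 3 counts were worth 0.0441 to 0.0708 CPM. The 2 libraries of a group differed by more than sampling noise (chi-square of 112 to 278 for each degree of freedom), and each was counted as 1 sample.

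The members and the gene lists were chosen with earlier results of these data known. Named genes were the pi class genes and their pseudogene, the 5 genes most like each member, per list and comparison up to 5 called genes with the smallest FDR (or the 2 with the smallest p where none was called), the nearest tested gene on each side, and the sex, genotype, cell type and reference markers. Mgst1, Gsta3, Gstm1, Gstz1 and Gstm7, given as levels beside the members, and Ptprcap and Rhod, the ends of a range, were chosen after their values were seen. Transcript sequences are those of the GRCm38 annotation, and promoter windows those of RefSeq on GRCm38.p6.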

Additional observations from a re-analysis of the deposited data

Results flagged for a closer look

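For Gstp3 both NT-KO libraries were above both WT libraries in males, as for 19.6% of all tested genes, and below both in females, as for 14.2%. The female log2 fold change of -0.16 was smaller than its SE of 0.273. The log2 fold change of the males minus that of the females was 5.44, and this difference was not tested, because the levels of Gstp3 led to its choice.

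Ccr3, a chemokine receptor gene of eosinophils, moved in opposite directions in the sexes. It was at 4.02 and 2.97 CPM in WT males and 0.0814 and 0.0381 CPM in NT-KO males, and at 0.329 and 0.235 CPM in WT females and 4.57 and 3.64 CPM in NT-KO females. The difference between the sexes was -9.70 on the log2 scale (SE 0.566, FDR 0.0014 by edgeR's quasi-likelihood interaction test), with all 4 male and all 4 female libraries in these directions. The 2 NT-KO male libraries rested on 4 and 2 counts.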

How the results depend on the processing

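The number of called genes depended on the test and the filter. In males 2 genes were called between genotypes, against 205 with the likelihood ratio test, 218 with DESeq2, 667 with no filter beyond 1 count, 6 with filterByExpr and 0 with the 4 male libraries alone. In females the count was 1, against 11, 5 and 172 with the likelihood ratio test, DESeq2 and no filter, and 0 with the female libraries alone. Between the sexes in WT these 3 settings gave 1039, 987 and 1736 in place of 614, in NT-KO 410, 401 and 825 in place of 234, and for the sex difference of the genotype effect 46, 62 and 552 in place of 2. Leaving out 1 library gave 2 to 21 calls in males (2 without WT male replicate 2, 21 without WT male replicate 1), 0 in females whichever library was left out, 181 (without WT female replicate 2) to 725 (without NT-KO male replicate 2) between the sexes in WT, 112 (without NT-KO female replicate 1) to 233 in NT-KO, and 1 to 7 for the sex difference. Where 1 library of a group was left, it was assumed to vary like the other groups. The causes were not tested.

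Replicate numbers are shared across groups but did not pair the samples: the correlation of deviations was -0.0067 between WT and NT-KO males, 0.023 between the female genotypes, -0.18 between the sexes in WT and 0.11 in NT-KO. With the replicate number as a block 3 genes were called in males, 0 in females, 523 between the sexes in WT, 205 in NT-KO and 2 for the sex difference. A crossed pairing of the WT sexes, added after seeing the data, gave 544 calls.

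The log2 fold changes of the members kept their direction under the other scalings, tools and filters, except that of Gstp1 between female genotypes, which ran from -0.01 to 0.01. With library size only, Gstp1 between the sexes in WT was 3.98 in place of 4.16. Leaving out 1 library moved Gstp1 from -1.29 (without NT-KO male replicate 1) to 0.082 (without replicate 2) in males, from -0.13 to 0.13 in females, from 4.10 to 4.22 between the sexes in WT and from 2.85 to 4.23 in NT-KO. Gstp2 ran from 0.81 to 1.48 in males, from -0.51 (without WT female replicate 2) to 1.07 (without replicate 1) in females, and from 3.17 to 4.76 between the sexes in WT. Gstp3 ran from 4.90 to 5.62 in males, from -0.23 to -0.10 in females, from -1.29 to -0.68 between the sexes in WT and from 4.10 to 4.78 in NT-KO. Of 69 values of single named genes, 0 turned direction, and of the 43 called, 29 did not lose the call under any alternative run. Many of these genes were picked for a small FDR or for likeness to a member over the same libraries. Such a choice favours a kept call, so this count does not measure how stable calls are in general. At 54 to 130 counts, the female levels of Gstp2 rest on the fewest reads of the members, which concerns counting error only.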
